A study of Mus musculus with 3 samples.

Results

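This report describes Pol_II phosphorylated at Ser5 on 10 genes of the first steps of LPS sensing in mouse macrophages. The genes encode the co-receptors CD14 and MD-2 (Cd14, Ly96), the adaptors MyD88, TIRAP, TRIF and TRAM (Myd88, Tirap, Ticam1, Ticam2) and the IRAK kinase family (Irak1, Irak2, Irak3, Irak4). They were taken by name, by their place in the pathway, and all 10 were found among 22350 protein-coding genes annotated on chromosomes 1 to 19 and X of the mm9 assembly. The cells were bone marrow-derived macrophages (BMDM) of female Fvb mice (Fvb/Hsd in the study's methods) at the 7th day of differentiation, grown in medium conditioned by L929 fibroblasts. Chromatin was precipitated with an antibody against the Ser5-phosphorylated C-terminal repeat of the large Pol_II subunit (Abcam ab5131) from untreated cells and from cells stimulated with LPS at 10 ng/ml for 2 h. The third library was input DNA. Each condition is 1 library, so no difference below has a replicate check or a p-value.

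LPS, the glycolipid that coats Gram-negative bacteria, is handed by CD14 to the complex of TLR4 with MD-2 at the cell surface. TIRAP brings MyD88 to this complex, and MyD88 assembles with IRAK4 and then IRAK1 or IRAK2, which pass the signal to TRAF6 and on to NF-kB and the MAP kinases. From endosomes the receptor signals through TRAM and TRIF to the kinases that activate IRF3 and type I interferon genes. IRAK3, also named IRAK-M, is held to lack kinase activity and restrains the MyD88 branch. Ser5 phosphorylation of Pol_II is placed early in transcription, so that its ChIP-Seq signal is usually highest near the transcription start site (TSS).

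The aligned files held 7624549 tags of the untreated, 6259018 of the LPS and 7547185 of the input library, with tags of 45, 30 and 36 bases in that order. Levels are given as RPKM, the tags per kb of region and per 1000000 tags of the library, over the annotated gene (gene body) or over the window of 1 kb on each side of its TSS. All intervals are 95% exact intervals of counting error and say nothing of the variation between cultures. Among the marker lists, 7 of 7 macrophage genes had a Ser5 peak at the TSS in both libraries, at 1.94 to 105 RPKM in the body when untreated, while none of the 12 markers of T cells, B cells, neutrophils and their progenitors or fibroblasts had such a peak. After LPS the macrophage genes stood between 0.4445 and 42.6 RPKM. Of them 4 were more than 2 times lower, namely Csf1r at 0.449, Cd68 at 0.263, Itgam at 0.229 and Lyz2 at 0.405 of the untreated level. Itgam lay below its input of 0.725 RPKM. Emr1 went the other way at 3.01 (2.86 to 3.17), while Spi1 at 1.44 and Fcgr1 at 0.786 changed by less than 2 times. The part of these marker changes in the results below was not tested. The 12 other markers reached at most 0.927 RPKM in the untreated library. The LPS response genes Tnf and Nfkbia were 9.66 and 6.19 times higher in the LPS library over the body. The median coding gene was at 0.874 of its untreated level over the body, a log2 of -0.20, and at -0.09 when the libraries were scaled to the tags outside peaks.

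Of the 10 genes, 4 were at least 2 times higher after LPS over the gene body, namely Irak2, Cd14, Irak3 and Ticam2, where 5.82% of the 17386 coding genes with at least 10 Ser5 tags passed the same size. None of the 10 was at least 2 times lower, against 11.2% of those genes. In the TSS window 3 genes passed (Cd14, Irak2 and Irak3) beside 5.61% of 12536 coding genes, and none was lower by that size beside 14.1%. The median ratio of the LPS to the untreated library was 1.54 over the 10 bodies and 1.196 over the 10 TSS windows, beside 0.874 and 0.831 over all genes measured. With the median gene set to 1, Myd88 passed as well, at 2.05 over the body and 2.00 in the TSS window. The shares of all coding genes measured that passed upward then rose as well, to 7.99% over the body and 8.28% in the TSS window. In that scaling 51.7% of all calls over gene bodies were upward and in the TSS window 47.3%, against 34.1% and 28.4% as scaled here. As these are bulk cultures, a change in the number of cells that load Pol_II on a gene and a change in the amount per cell cannot be told apart.

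**Figure D1:**
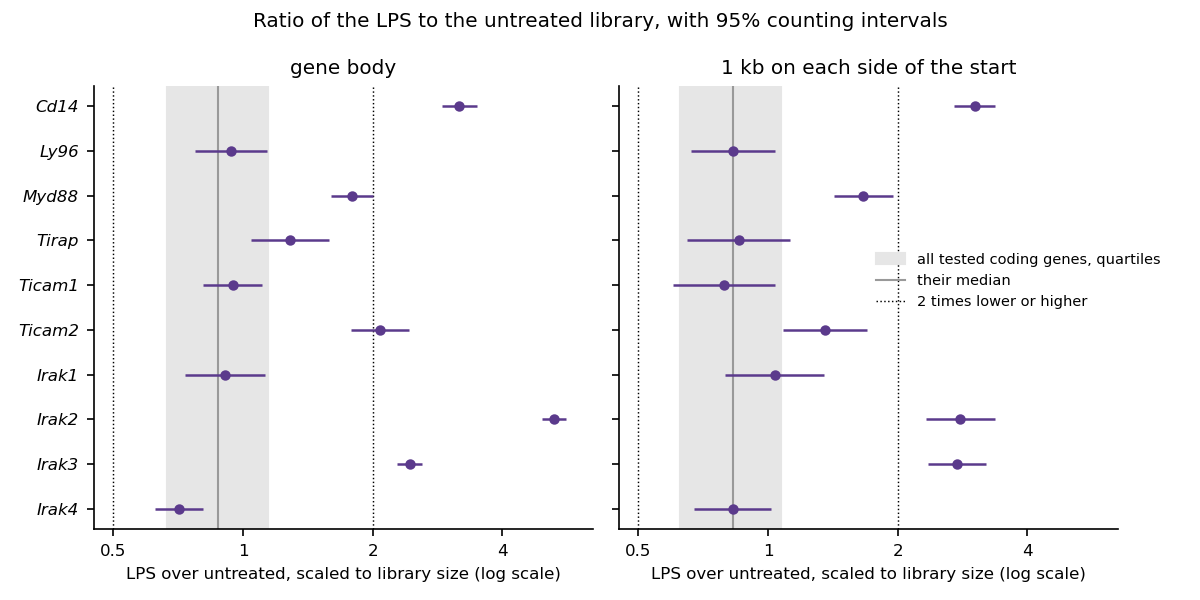
Points are the ratio of the LPS to the untreated library after scaling to library size (log axis) over the gene body (left) and 1 kb on each side of the TSS (right), with 95% counting intervals. The grey band spans the middle 50% of all tested coding genes. Irak2 at 5.26, Cd14 at 3.18 and Irak3 at 2.43 lie beyond 2 in the left panel with their whole intervals, the interval of Ticam2 crosses 2, and Irak4 at 0.711 is the lowest.

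All 10 genes already carried Ser5-phosphorylated Pol_II before LPS. Each had a peak in its TSS window in the untreated library, as had 48.0% of all coding genes, and in the LPS library, as had 45.9%. Each body was at least 2 times above input in both libraries, where 37.6% of the coding genes measured passed when untreated and 32.8% after LPS. In the untreated cells Cd14 had the highest level over the body, at 49.0 RPKM, followed by Myd88 at 12.8 and Ticam1 at 6.45. The 3 IRAK genes Irak3, Irak2 and Irak1 came next at 3.01, 2.75 and 2.73, with overlapping intervals. Irak4 at 2.31 and Ticam2 at 2.21 did not differ beyond counting error, nor did Tirap at 1.83 and Ly96 at 1.56 at the low end. After LPS the order was Cd14 at 156, Myd88 at 22.9, Irak2 at 14.5, Irak3 at 7.33, Ticam1 at 6.11 and Ticam2 at 4.59. Neighbours in this upper part of the order had intervals that did not overlap. Irak1 at 2.48 and Tirap at 2.35 could not be ordered, and neither could Irak4 at 1.64 and Ly96 at 1.47. Irak2 thereby moved from percentile 84.4 to percentile 98.1 of all coding genes.

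**Figure D2:**
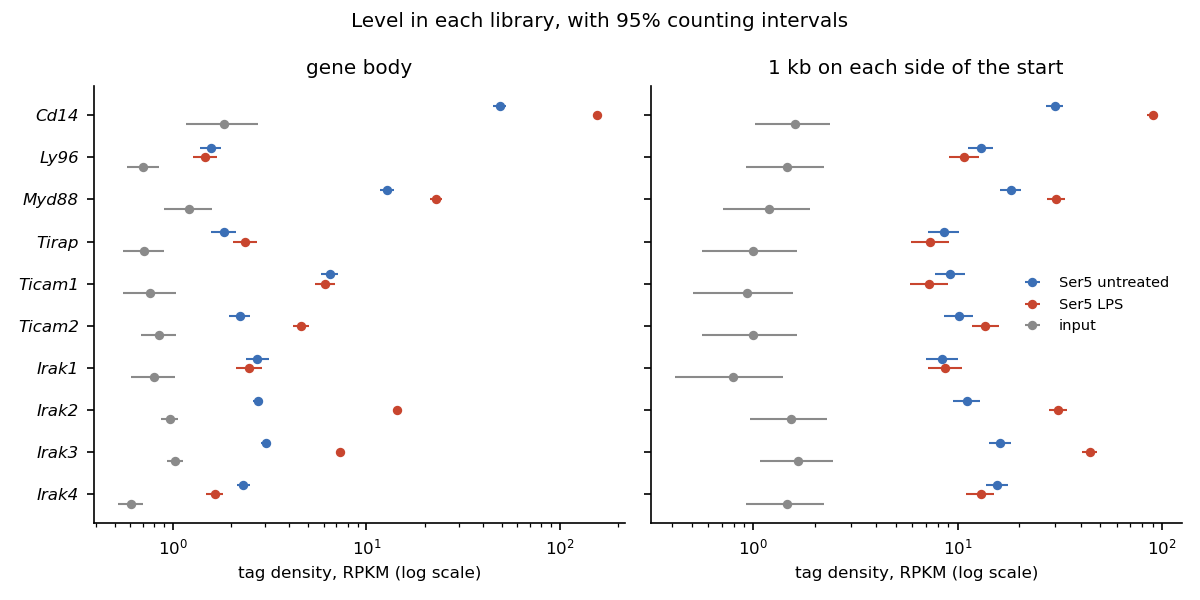
Points are the tag density in RPKM (log axis) in the Ser5 untreated, Ser5 LPS and input libraries over the gene body (left) and 1 kb on each side of the TSS (right), with 95% counting intervals. Both Ser5 libraries lie above input at every gene, and in the left panel the LPS point of Irak2 stands at 14.5 beside 2.75 untreated.

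Cd14 encodes the GPI-anchored protein that delivers LPS to TLR4 and MD-2, and it had by far the densest signal of the 10. The gene (ENSMUSG00000051439.6, chr18:36884728-36886390, minus strand) held 620 tags in the untreated, 1617 in the LPS and 23 in the input library. The LPS to untreated ratio was 3.18 (2.90 to 3.49) over the body and 3.02 (2.71 to 3.37) in the TSS window. A single peak covered the whole gene in both libraries and ran 2985 bp past the annotated 3′ end when untreated and 3178 bp past it after LPS. In the 2 kb after the gene end the counts were 282 and 987 tags, a ratio of 4.27 (3.73 to 4.89), whose interval did not overlap that of the body. From 2 to 4 kb after the end the counts were 126 and 208, a ratio of 2.01 (1.61 to 2.53). With 1 tag kept per position and strand the ratio over the body was 2.76.

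Ly96 encodes MD-2, the subunit of the receptor that binds the lipid part of LPS. Over its body (chr1:16678537-16699686, plus strand) it held 252, 194 and 112 tags in the untreated, LPS and input libraries, a ratio of 0.938 (0.774 to 1.14) between the Ser5 libraries. The signal lay at the TSS, where the counts were 198, 135 and 22 and the ratio 0.831 (0.663 to 1.04). From 1 kb after the TSS to the gene end the untreated library was at 0.902 (0.673 to 1.21) of input and the LPS library at 1.10 (0.821 to 1.47). Summed over this distal part, the Ser5 libraries did not differ from input beyond counting error, though the LPS library listed a weak peak from 931 to 1429 bp after the TSS, with 13 untreated, 19 LPS and 7 input tags. The co-receptors thus differed, since the intervals of Cd14 and Ly96 were far apart in the body and at the TSS.

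Myd88, the adaptor shared by most Toll-like receptors and the IL-1 receptor family, held 533, 783 and 50 tags over its body (chr9:119245052-119250529, minus strand). The ratio was 1.79 (1.60 to 2.00) over the body and 1.66 (1.42 to 1.95) at the TSS, below the size of 2 but with intervals above 1. The annotation gives a second start 1370 bp inside the gene, that of the transcript with the longest coding sequence (Myd88-001), and signal stood at both. In the 2 kb around that start the counts were 392 and 583, a ratio of 1.81 (1.59 to 2.07). Beyond both starts the counts were low and the ratio highest in the third of 4 equal segments that follow the first 1 kb, with 12 and 45 tags and a ratio of 4.57 (2.38 to 9.49). Separate peaks in this distal part were listed in the LPS library only, and the peak over the starts reached farther into the gene there. Peaks covered 35.98% of the gene when untreated and 64.7% after LPS. Acaa1a starts 117 bp away on the other strand and was at 1.57 (1.32 to 1.87), so that the signal between the starts cannot be assigned to either gene.

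Tirap, the sorting adaptor that brings MyD88 to the membrane, held 183, 193 and 70 tags over its body (chr9:34994370-35007490, minus strand), a ratio of 1.285 (1.045 to 1.582). At the TSS the counts were 131 and 92 and the ratio was 0.856 (0.648 to 1.13). The body excess therefore lay past the first 1 kb, where 109 and 136 tags gave 1.52 (1.17 to 1.98). An exon peak 12219 bp after the TSS was listed in the LPS library only, with 8 and 25 tags. The neighbour Srpr starts 270 bp away on the other strand, and its body was at 1.03 (0.918 to 1.15).

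Ticam1 encodes TRIF, the adaptor of the interferon branch. Its body (chr17:56408742-56416209, minus strand) held 367, 285 and 43 tags, a ratio of 0.946 (0.808 to 1.11), and its TSS window 140, 91 and 14, a ratio of 0.792 (0.602 to 1.04). Unlike at the other members in the untreated library, the highest-scoring peak was not at the TSS but over the last exon. It was centred 7143 bp after the TSS and ran 436 bp past the gene end in the untreated library, with a score of 1585 against 833 for the TSS peak. Inside it were 214 untreated, 146 LPS and 8 input tags, a ratio of 0.832 (0.669 to 1.03). The peak was thus present before LPS and did not differ beyond counting error after it.

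Ticam2 encodes TRAM, which bridges the receptor to TRIF. The body (chr18:46718809-46734187, minus strand) held 259, 441 and 98 tags, a ratio of 2.08 (1.78 to 2.43), while the TSS window held 154, 171 and 15, a ratio of 1.35 (1.08 to 1.69). The ratio was 1.497 (1.177 to 1.907) in the first 1 kb and between 2.296 and 3.315 in the 4 segments after it, whose intervals overlapped. It was 4.16 (2.39 to 7.62) in the 2 kb after the gene end and 2.20 (1.48 to 3.31) from 2 to 4 kb after it. Of this gene, 93.0% lies inside Tmed7, which runs on the same strand from a start 23002 bp upstream, so that the tags of both cannot be separated there. The share of either gene in them was not tested. In the part of Tmed7 outside Ticam2 the counts were 226 and 213, a ratio of 1.15 (0.948 to 1.39). The TSS window of Tmed7 was at 1.435 (1.202 to 1.713), beside 1.35 in that of Ticam2. In the 1080 bp of Ticam2 outside any other coding gene the counts were only 9 and 23, a ratio of 3.12 (1.39 to 7.65). The 1 kb just upstream of the Ticam2 TSS, within Tmed7, held 27 and 15 tags, a ratio of 0.677 (0.335 to 1.32).

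**Figure D3:**
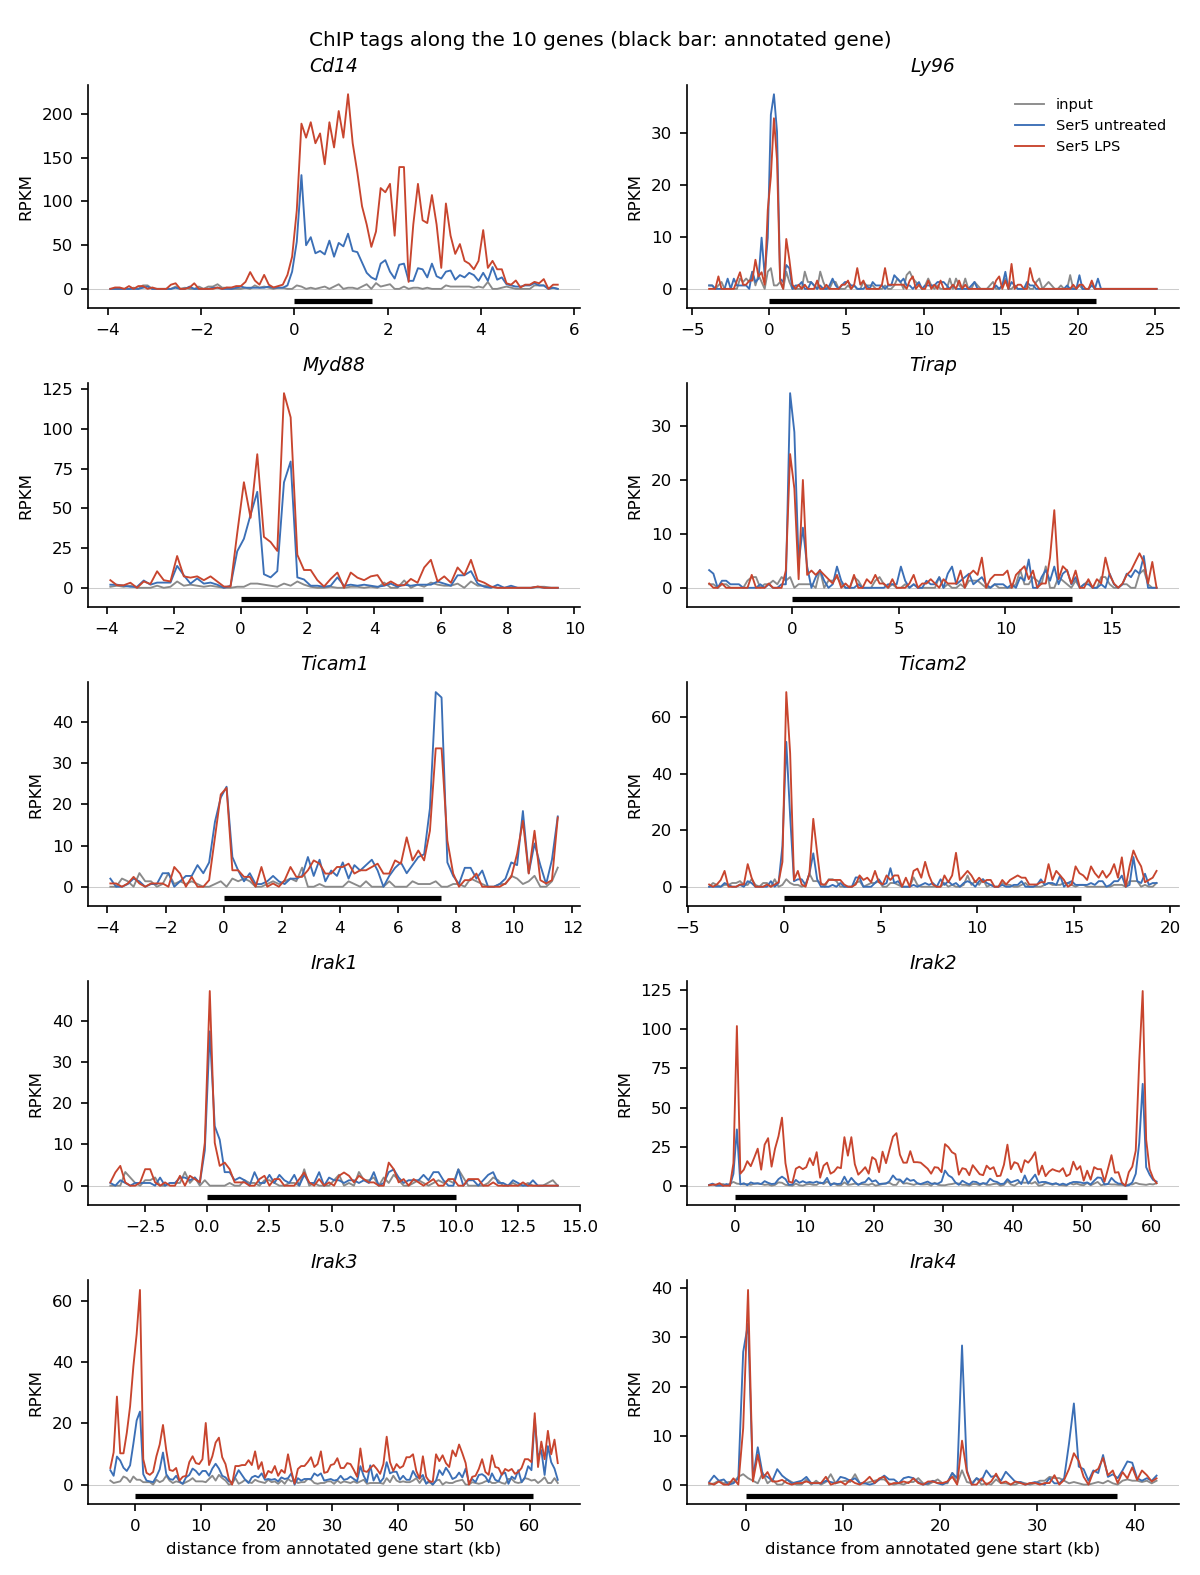
Lines are the tag density in RPKM along each gene and 4 kb to each side, in bins of 100, 200 or 500 bp by gene length, for the 3 libraries. The horizontal axis is the distance from the annotated gene start in the direction of transcription, the black bar is the gene, and the vertical scales differ. The LPS line of Irak2 runs above the untreated line along the gene except in 1 bin near its end where no library has tags, Ticam1 has its highest point at its 3′ end, and Irak4 has intron peaks that are lower after LPS.

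Within the IRAK family the genes fell apart in size of change. Irak2 was 5.26 times and Irak3 2.43 times higher after LPS over the body, Irak1 was at 0.908 and Irak4 at 0.711. The kinase that takes over from IRAK1 in lasting responses and the inhibitor were thus the members with more Ser5 signal, and the kinases that start the cascade were not. The intervals of Irak2 and Irak3 did not overlap each other or those of Irak1 and Irak4.

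Irak2 had the largest ratio of the 10. The gene (chr6:113588461-113645003, plus strand) held 1184, 5109 and 410 tags, a ratio of 5.26 (4.94 to 5.61), higher than at 99.1% of the coding genes measured. The TSS window held 169, 388 and 23 tags, a ratio of 2.80 (2.33 to 3.37). The excess was thus larger in the gene than at its start. In the first 1 kb the ratio was 2.99 (2.45 to 3.66), and in the 4 equal segments after it 7.38 (6.40 to 8.54), 6.16 (5.42 to 7.01), 4.64 (4.08 to 5.29) and 4.28 (3.70 to 4.97) in the direction of transcription. The intervals of the first and the last segment were apart, so that the difference declined along the gene beyond counting error. Peaks covered 14.7% of the gene in 18 intervals when untreated and 88.7% in 32 intervals after LPS. The 2 kb after the end held 162 and 412 tags, a ratio of 3.10 (2.58 to 3.74). The last peak of the LPS library spans the gene end and also overlaps Tatdn2, and the share of either gene in it was not tested.

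Irak3 differed in shape. The gene (chr10:119578704-119639186, minus strand) held 1388, 2772 and 466 tags, a ratio of 2.43 (2.28 to 2.60), and its TSS window 246, 554 and 25, a ratio of 2.75 (2.36 to 3.20). The ratio was about as large along the gene as at its start, at 2.34 (2.06 to 2.66), 2.87 (2.46 to 3.36), 2.35 (2.03 to 2.71) and 2.27 (1.98 to 2.60) in the 4 segments. In the 2 kb after the end it was 1.15 (0.920 to 1.43), from 171 and 161 tags. Peaks in the gene numbered 19 when untreated and 54 after LPS, with 16.2% and 70.7% of the gene covered. Tmbim4 starts 540 bp inside the gene on the other strand and was itself at 2.17 (1.97 to 2.39). At the start the 2 genes cannot be separated, but 99.1% of the Irak3 body lies outside other coding genes, and its ratio there was 2.44 (2.28 to 2.61).

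Irak1, the kinase recruited by IRAK4, held 208, 155 and 60 tags over its body (chrX:71259253-71269257, minus strand), a ratio of 0.908 (0.733 to 1.12). Its TSS window held 128, 109 and 12 tags, a ratio of 1.04 (0.796 to 1.35). A single TSS peak was listed in each library, with scores of 874 and 795. Neither the body nor the start differed beyond counting error.

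Irak4, the first kinase of the cascade, was the member with the lowest ratio. The body (chr15:94374074-94412246, plus strand) held 672, 392 and 174 tags, a ratio of 0.711 (0.626 to 0.806), and 0.814 relative to the median gene. The TSS window held 238, 162 and 22, a ratio of 0.830 (0.675 to 1.02), but its sides differed. The first 1 kb of the gene had 130 and 126 tags, a ratio of 1.18 (0.917 to 1.52), and the 1 kb upstream had 108 and 36, a ratio of 0.406 (0.271 to 0.597). The upstream side is the start of Pus7l, which begins 96 bp away on the other strand and was at 0.478 (0.336 to 0.670) over its body. The highest-scoring intron peaks of Irak4, meaning peaks inside the annotated gene and outside its exons, were lower after LPS. The peak centred 22231 bp after the TSS held 116 untreated, 33 LPS and 11 input tags, a ratio of 0.347 (0.228 to 0.514). That at 33738 bp held 101, 42 and 3, a ratio of 0.507 (0.345 to 0.733). It lies beyond the end of the transcript with the longest coding sequence (Irak4-001, chr15:94374074-94398737). Outside all peaks of both libraries the gene was at 0.703 (0.568 to 0.867), from 248 and 143 tags beside 152 of input. These tags are not scaled, and after scaling to library size the LPS level there lay near input. In its last 3865 bp Irak4 overlaps Twf1, and outside other coding genes it was at 0.681 (0.594 to 0.779).

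**Figure D4:**
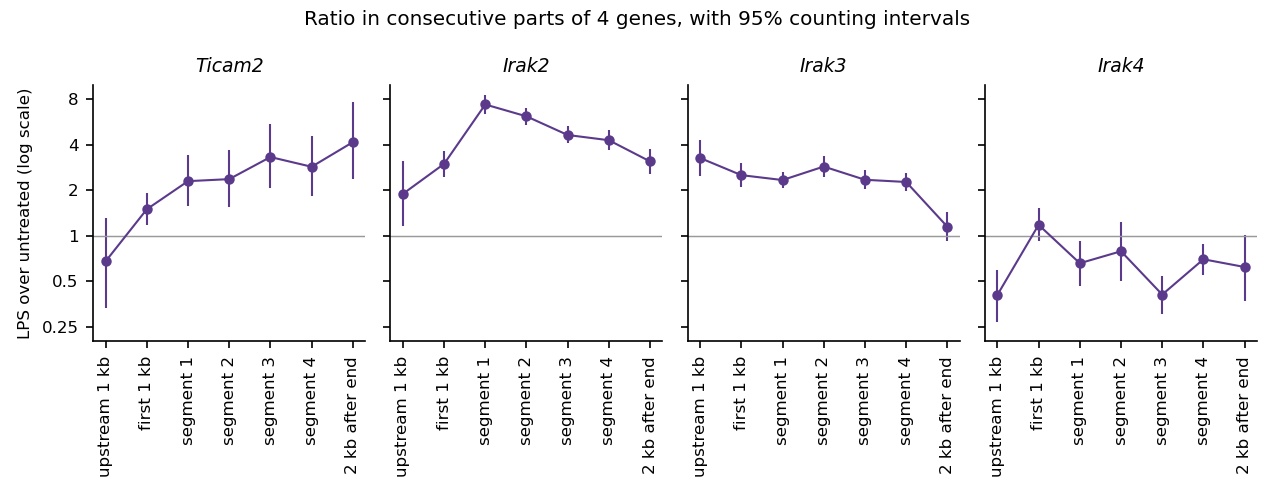
Points are LPS to untreated ratios (log axis) in the 1 kb upstream, the first 1 kb, 4 equal segments of the rest of the gene, in order, and the 2 kb after the end, with 95% counting intervals. Irak2 falls from 7.38 to 4.28 over its segments, Irak3 stays between 2.27 and 2.87, Ticam2 lies at 0.677 upstream and above 2 after its first 1 kb, and Irak4 lies below 1 except in its first 1 kb.

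The ratio of the density in the TSS window to that of the gene beyond the first 1 kb compares start and body within each library, without any scaling between libraries. The median over 9940 coding genes was 10.8 when untreated and 10.1 after LPS. The change from untreated to LPS had a median of 0.9495, with the middle 50% of genes between 0.748 and 1.22. Irak2 went from 4.49 to 2.26, a change of 0.503 (0.414 to 0.614), and Irak3 from 6.01 to 6.81, a change of 1.13 (0.958 to 1.34). The 2 IRAK genes with more signal after LPS differed in this measure, with intervals apart. The Irak3 window also holds the Tmbim4 start, 540 bp inside the gene, so that its value mixes the start signal of both genes. Ticam2 went from 8.38 to 4.31, a change of 0.514 (0.377 to 0.702), and Tirap from 7.28 to 4.10, a change of 0.563 (0.384 to 0.826). Irak4 went the other way, from 8.16 to 11.3, a change of 1.39 (1.07 to 1.79). The Irak4 window also holds the Pus7l start, and 3865 bp of its distal part overlap Twf1. Of Ticam2, 93.0% lies inside Tmed7. The windows of Tirap and Myd88 likewise hold the starts of Srpr and Acaa1a. The values of these genes therefore mix the signal of neighbours. For Myd88 at 2.06 and 1.82, Ticam1 at 1.48 and 1.23 and Irak1 at 5.65 and 7.55, the interval of the change included 1. The value of Myd88 rests on which start is taken, since with the Myd88-001 start it was 14.9 and 10.2. Ly96 went from 21.4 to 14.6 with a distal part at the level of input, and Cd14 is too short for the measure.

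**Figure D5:**
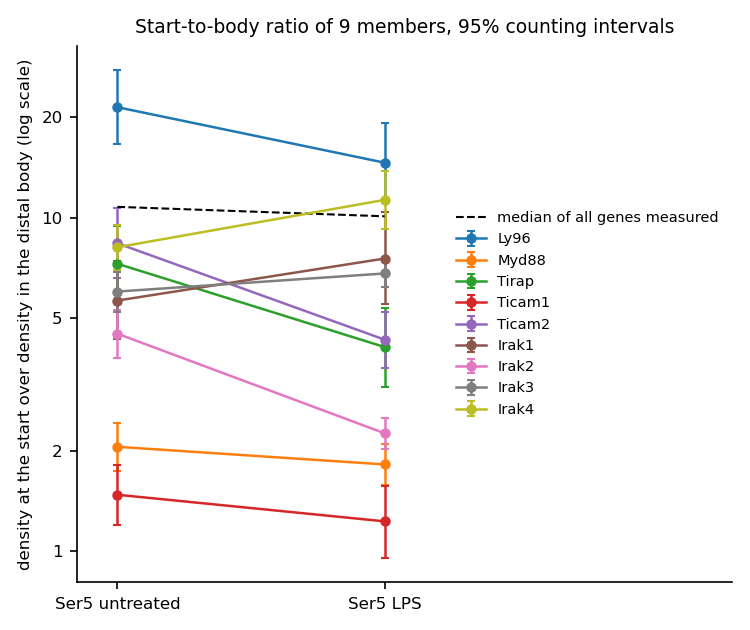
Points are the density of tags 1 kb on each side of the TSS over that from 1 kb after the TSS to the gene end (log axis) in the 2 Ser5 libraries, joined by gene, with 95% counting intervals. The dashed line is the median of 9940 coding genes. Irak2 drops from 4.49 to 2.26 while Irak4, whose window also holds the Pus7l start, climbs from 8.16 to 11.3.

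Promoter sequence was read from the mm9 assembly for all members. The window runs from 275 bases before to 25 bases after the start of the transcript with the longest coding sequence. Only some windows are shown, and those of Irak3 and Irak4, which overlap Tmbim4 and Pus7l, are not. Irak2 and Irak1 are shown as the kinases with the largest change and with none beyond counting error, and Myd88 because its inner start also carried signal. Irak2 was named for its change, and the other choices were made after the values were seen. Capitals mark matches to 6 motifs searched on both strands. These were the NF-kB consensus, an AP-1 pattern TGANTCA that takes any middle base, and an ISRE-like repeat GAAANNGAAA. The others were the CRE TGACGTCA, the PU.1/ETS core GAGGAA and the TATA box TATAAA. The windows are chr6:113588186-113588485 (plus strand), chrX:71269228-71269527 and chr9:119249135-119249434 (both minus strand, written 5′ to 3′ along the gene).
Irak2 promoter: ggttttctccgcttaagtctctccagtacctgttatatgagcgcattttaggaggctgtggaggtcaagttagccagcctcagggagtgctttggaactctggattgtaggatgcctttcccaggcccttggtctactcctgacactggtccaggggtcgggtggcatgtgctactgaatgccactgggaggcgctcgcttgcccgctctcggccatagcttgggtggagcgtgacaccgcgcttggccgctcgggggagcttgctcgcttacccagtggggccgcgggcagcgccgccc
Irak1 promoter: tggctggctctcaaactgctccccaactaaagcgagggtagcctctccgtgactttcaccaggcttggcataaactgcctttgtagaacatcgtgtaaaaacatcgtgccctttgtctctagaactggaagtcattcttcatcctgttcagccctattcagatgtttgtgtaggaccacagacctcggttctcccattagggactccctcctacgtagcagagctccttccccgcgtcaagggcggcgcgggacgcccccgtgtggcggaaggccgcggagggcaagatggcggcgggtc
Myd88 promoter: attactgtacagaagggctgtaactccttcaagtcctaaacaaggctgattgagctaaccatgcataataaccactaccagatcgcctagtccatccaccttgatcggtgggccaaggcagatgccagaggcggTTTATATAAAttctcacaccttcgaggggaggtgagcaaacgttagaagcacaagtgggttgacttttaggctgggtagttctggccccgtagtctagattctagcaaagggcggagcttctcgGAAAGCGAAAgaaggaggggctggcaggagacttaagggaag
None of the 4 IRAK promoter windows held any of the 6 motifs, and neither did that of Tirap. The Cd14 window held 2 matches to the AP-1 pattern. That of Ticam2 held 2 PU.1/ETS cores, and those of Ly96 and Ticam1 held 1 each. The share of all promoters without any of the 6 was not counted. The Myd88 window held the ISRE-like repeat with its first base 17 bases before the start, and TATA box matches on either strand at 141 and 137 bases before it, which overlap. Over 22342 coding promoters of this length, 4.86% held the NF-kB consensus, 6.91% the AP-1 pattern and 4.001% the ISRE-like repeat. The CRE was found in 2.32%, the PU.1/ETS core in 27.1% and the TATA box in 13.97%. The IRAK windows had 17 to 20 CpG dinucleotides each, where the median promoter had 11, and the Myd88 window had 9.

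The intron peaks of Irak2 and Irak4 that scored highest in the untreated library are shown by their central 300 bases on the plus strand, with the same use of capitals. The Irak2 peak lies at chr6:113610986-113611285, 22674 bp after the TSS, and held 25 untreated and 73 LPS tags over its whole length, a ratio of 3.56 (2.23 to 5.85). Those of Irak4 lie at chr15:94396156-94396455 and chr15:94407663-94407962 and are the peaks with ratios of 0.347 and 0.507 above. The latter is inside the annotated gene but beyond the end of Irak4-001.
Irak2 intron peak: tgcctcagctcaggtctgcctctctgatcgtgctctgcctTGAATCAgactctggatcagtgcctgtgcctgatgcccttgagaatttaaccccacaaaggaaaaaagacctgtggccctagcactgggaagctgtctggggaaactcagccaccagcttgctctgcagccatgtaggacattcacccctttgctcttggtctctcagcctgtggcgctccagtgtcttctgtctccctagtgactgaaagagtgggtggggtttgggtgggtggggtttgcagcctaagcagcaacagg
Irak4 intron peak, 22231 bp after the TSS: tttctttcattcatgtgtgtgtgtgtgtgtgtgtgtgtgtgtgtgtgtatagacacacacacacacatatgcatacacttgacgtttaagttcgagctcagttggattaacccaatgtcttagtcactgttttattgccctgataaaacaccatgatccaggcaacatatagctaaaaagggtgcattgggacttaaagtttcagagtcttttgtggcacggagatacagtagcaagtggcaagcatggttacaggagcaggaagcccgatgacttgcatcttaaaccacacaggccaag
Irak4 intron peak, 33738 bp after the TSS: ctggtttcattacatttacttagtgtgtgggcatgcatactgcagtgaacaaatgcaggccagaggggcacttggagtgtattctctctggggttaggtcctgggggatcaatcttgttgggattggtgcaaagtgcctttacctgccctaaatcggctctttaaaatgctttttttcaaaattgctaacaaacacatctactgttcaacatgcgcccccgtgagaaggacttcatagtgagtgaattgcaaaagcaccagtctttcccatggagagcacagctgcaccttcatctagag
The Irak2 sequence held a match to the AP-1 pattern TGANTCA, with A as its middle base. A match with any middle base was found in 9.64% of the central 300 bases of 53467 untreated peaks. The Irak4 sequences held none of the 6 motifs. The first Irak4 sequence opens with a run of GT repeats, in which short tags can be hard to place. The tags were 45 bases in the untreated and 30 in the LPS library. The part of this difference in the ratio of 0.347 at that peak was not tested.

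Around these 10 genes, a list of 36 further pathway genes gave a mixed picture. Over the body 5 passed the size of 2 upward and 3 downward, where 5.82% and 11.2% of all coding genes did, with a median ratio of 1.07. Of 7 genes upstream of the adaptors, such as the receptor and its chaperones, none was higher and Cnpy3, a chaperone of Toll-like receptors, was lower at 0.416 (0.337 to 0.512). The receptor gene Tlr4 itself held 774 and 427 tags, a ratio of 0.672 (0.596 to 0.758). Its level was 0.990 RPKM untreated and 0.665 after LPS, beside 0.675 of input, so that the LPS value lay at the level of input. Of 29 downstream and feedback genes, 5 were higher. These were Peli1, a ubiquitin ligase that acts on IRAK1, at 7.47 (6.81 to 8.21), the interferon regulator Irf7 at 2.62 (2.36 to 2.91), the kinases Ikbke at 2.57 (2.44 to 2.71) and Tbk1 at 2.10 (1.91 to 2.32), and the adaptor Pik3ap1 at 2.22 (2.13 to 2.31). Fadd, a death domain adaptor, was lower at 0.388 (0.311 to 0.481), and so was Peli2, a relative of Peli1, at 0.424 (0.367 to 0.489). Peli2 was close to input when untreated and below it after LPS, at 0.698 and 0.296 RPKM beside 0.599 of input. In the TSS window, of 34 genes measured, 4 were higher and 5 lower, beside 5.61% and 14.1% of all coding genes.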

How the data were processed

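ChIP DNA and input DNA were sequenced from 3 libraries of mouse BMDM (Ser5 untreated, Ser5 LPS, input of untreated cells). The authors aligned tags with Bowtie to mm9, keeping unique hits with few mismatches, and called peaks with MACS against input in each Ser5 library by itself at a p of 1e-05. The versions are not given in the sources used here. The study's methods give 30 bases for untreated and 45 for LPS tags, where the deposited files hold 45 and 30. The deposited tag files give position and strand, from which tag counts were made here. The deposited peak files carry a score per peak, taken as a log-scaled p of MACS, and several of the highest peaks share the score 3100. Coordinates were checked against the mm9 assembly, where none of 21399898 tags passed a chromosome end.

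Tags were counted by their 5′ base, without regard to strand, over genes of GENCODE M1 and scaled to 1000000 tags on chromosomes 1 to 19 and X (7616771, 6249819 and 7533308). With 1 library per condition no test was run. A gene was called at a ratio of at least 2 or at most 0.5 where the Ser5 libraries together had 10 tags or more. All intervals were exact (Poisson, or binomial conditional on the summed tags) and cover counting error only, since PCR copies are not independent. The members and lists were chosen with earlier results of these data known. All 10 members are named, with pathway genes called over the body and, chosen after their values were seen, Tlr4. Spi1 was matched by its older symbol Sfpi1. Functions were tested on simulated data. Analysis used Python 3.11.15, numpy 2.4.6, pandas 2.3.3 and scipy 1.17.1.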

Additional observations from a re-analysis of the deposited data

How the results depend on the processing

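The counts and medians of the members gave 67 recomputed values over the alternative settings, and all stayed within 1.5 times the reported value or within its spread. The settings were 1 tag per position, tags moved 75 bp downstream, other scalings, another transcript, unique 30-base sequences, a narrower TSS window, the body without its first 1 kb, stricter peaks and no minimum. Positions outside other coding genes were added after the data were seen. Without the first 1 kb, 3 rather than 4 members were at least 2 times higher, since Cd14 has less than 1 kb left. Of 221 recomputed values of single members, 22 moved beyond their interval, 8 of them with the median gene set to 1, and no called member changed direction. Over the body Irak2 ranged from 5.11 to 6.02, Cd14 from 2.76 to 3.64, Irak3 from 2.39 to 2.79, Ticam2 from 2.08 to 3.12 and Irak4 from 0.598 to 0.814, and the uncalled Ly96, Ticam1 and Irak1 had values on both sides of 1. No paired analysis was possible because each condition is 1 library.

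Depth limits the short and weak regions most, such as the distal part of Ly96. The input is from untreated cells only, the tag lengths differ between the libraries, and neither effect on the ratios was tested beyond the unique 30-base positions.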

Other observations

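Peaks outside every annotated gene were listed within 20 kb of 9 of the 10 genes, 37 in the untreated and 40 in the LPS library. The share of all coding genes with such a peak nearby was not measured, so these counts have no background beside them. The following were picked after their values were seen. Near Cd14, a peak centred 818 bp upstream of the TSS was listed in the LPS library only, with 11 untreated, 43 LPS and 8 input tags, a ratio of 4.76 (2.42 to 10.2). Another, 13136 bp downstream of the Cd14 TSS, held 3 untreated and 39 LPS tags beside 7 of input, a ratio of 15.8 (5.04 to 80.1). Near Ly96 and Irak4 such peaks were listed in the untreated library only. That 27470 bp after the Ly96 TSS held 25 and 7 tags, a ratio of 0.341 (0.125 to 0.812), and that 48028 bp after the Irak4 TSS held 42 and 11, a ratio of 0.319 (0.148 to 0.631). Downstream of Ticam2 there were 2 such peaks in the untreated and 7 in the LPS library.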
